A study of Mus musculus with 9 samples.

Results

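The genes described here belong to cytokine signaling through Janus kinases (JAK) and STAT factors: 7 receptor subunits (Il4ra, Il13ra1, Il2rg, Il10ra, Il10rb, Il6ra and Il6st), the ligand Osm and the response genes Arg1 and Retnla. All 10 were chosen by gene symbol, and 9 of the 10 had a row among the 24607 genes of the deposited table. Retnla, which encodes a secreted resistin-like protein induced by interleukin 4, had no row and was not analysed here. No deposited gene was at 0 in all libraries, so a missing row cannot be told apart from a gene without reads. Marrow cells of mice with the genotype CX3CR1-gfp/+ were turned into macrophages by 50 ng/ml of the growth factor M-CSF, so all 3 groups carry the reporter allele and received M-CSF. Macrophages cultured with sensory neurons from dorsal root ganglia (co-culture), macrophages given transforming growth factor beta (TGF-β) at 0.02 ng/ml, and macrophages kept alone (monoculture) gave 3 libraries each, labeled with a time of 5 days. Cells were purified on the surface antigens CD11b and CD64 before RNA extraction. The design text names 3 mice as the source. Whether each mouse supplied all conditions is not stated, and the age and sex of the animals are not labeled. The neurons were described as derived from dorsal root ganglia, a tissue that also holds Schwann cells, satellite glia and fibroblasts.

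Cytokines of this class bring receptor chains together on the cell surface, which lets the JAK kinases bound to the chains phosphorylate STAT factors that then enter the nucleus. Receptors share chains: the interleukin 4 (IL-4) receptor alpha chain pairs with the common gamma chain for IL-4 or with the IL-13 receptor alpha 1 chain for IL-4 and IL-13. The IL-10 receptor has one specific and one shared chain, and members of the IL-6 family, oncostatin M among them, signal through the common chain encoded by Il6st. SOCS proteins are induced by these pathways and restrain them, and in macrophages STAT6 and STAT3 are the main factors downstream of IL-4 and IL-10.

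Library depth ranged from 46.8 M to 308.8 M reads, and levels are given as normalized counts, that is reads divided by 1 size factor per library. The macrophage antigens Itgam (CD11b), Fcgr1 (CD64) and Csf1r were present in all libraries, and none of the 14 macrophage markers was at 0 throughout a group. In co-culture against monoculture 5 of the 14 rose (Aif1, Mertk, Lyz2, Fcer1g and Tyrobp) and 2 fell (Cd14 and Emr1). Of all tested genes 15.9% were called higher and 15% lower in that comparison. Fibroblast markers summed to 8117 to 11727 normalized counts in co-culture libraries, where those given TGF-β had 81.9 to 186 and monoculture libraries 74.4 to 193. All 15 tested fibroblast markers rose in co-culture against monoculture (median log2 fold change 4.16), and 3 of them passed the filter on low values without the co-culture libraries. The others were tested only through the co-culture libraries, so their direction was set by the filter. The count and the median rest mostly on those others. Their sum was 0.00759 to 0.0106% of reads in co-culture, and in monoculture Lum, Mfap5, Pdgfra and Thy1 were listed at 0. Glia markers summed to 5675 to 6273 in co-culture, where TGF-β libraries had 9326 to 10656 and monoculture ones 10983 to 12774, and 8 of 13 tested rose while 3 fell in co-culture against monoculture. The filter was passed by 5 of the 13 without the co-culture libraries, none of them among the 8 that rose, so the direction of those 8 was set by the filter. The Schwann cell genes Sox10, Ngfr and Cdh19 were among the 8, each with at most 1.503 normalized counts in any other library, while Mbp and L1cam, both also present in monoculture (mean 5459 and 5250.1), fell. Sensory neuron markers summed to 611 to 868 in co-culture, where TGF-β libraries had 8111 to 10758 and monoculture ones 8766 to 10077, with Uchl1 making up most of the sum, and the neuronal genes Calca, Isl1 and Snap25 had between 0 and 5.98 normalized counts in the co-culture libraries. Of 5 tested neuron markers 1 rose and 1 fell in co-culture against monoculture, Tubb3 (88.0, 87.5 and 101.7 normalized counts in co-culture, against 8.06 to 55.2 in monoculture; limma adjusted p = 0.00562) and Uchl1. The neurofilament gene Nefm, below the filter, had 2.77, 14.1 and 31.9 in co-culture and 0 in all other libraries, and Nefl reached 31.2 in co-culture 3. Markers of granulocytes, mast cells and dendritic cells summed to at most 107 in any library. Whether RNA of these other cells contributes to the changes given below was not tested. In such bulk samples fewer cells of a kind and less RNA per cell cannot be told apart.

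Most of the 9 genes changed in co-culture, and none was called with TGF-β. Against monoculture 5 rose in co-culture (Il4ra, Il13ra1, Il10ra, Osm and Arg1), 1 fell (Il6st), and 3 did not pass the test (Il2rg, Il10rb and Il6ra). The test was limma on log2 of the normalized count plus 10, with adjustment by the Benjamini-Hochberg method over all 16328 tested genes and a threshold of 0.05, and all 9 genes passed the filter on low values, with at least 10 in every library. Over all tested genes 30.8% were called in this comparison, 15.9% higher and 15% lower. With TGF-β against monoculture 0 of the 9 genes passed in limma, where 2.52% of all tested genes did (1.13% higher and 1.39% lower), and 3 had an unadjusted p below 0.05. DESeq2 on the recovered reads called 1 of the 9 in that comparison, Il10ra. In co-culture against TGF-β 5 rose and 1 fell, the genes that were called against monoculture, where 25.3% of all tested genes were called, 13.4% higher and 11.9% lower. The comparisons share libraries pairwise (monoculture, co-culture or TGF-β), so their counts are not independent of each other. The median log2 fold change of the 9 was 1.05 in co-culture and 0.07 with TGF-β against monoculture, where over all tested genes it was 0.03 and -0.01. In 6 of the 9 genes the co-culture and monoculture libraries did not overlap, 5 higher and 1 lower, compared with 45% of all tested genes (23.3% higher and 21.7% lower). In 1, Il10ra, the TGF-β and monoculture libraries did not overlap, compared with 16.9% of all tested genes (7.27% higher and 9.64% lower). Between co-culture and TGF-β 5 were higher and 1 lower without overlap, where 41% of all tested genes did not overlap, 21.3% higher and 19.8% lower.

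**Figure D1:**
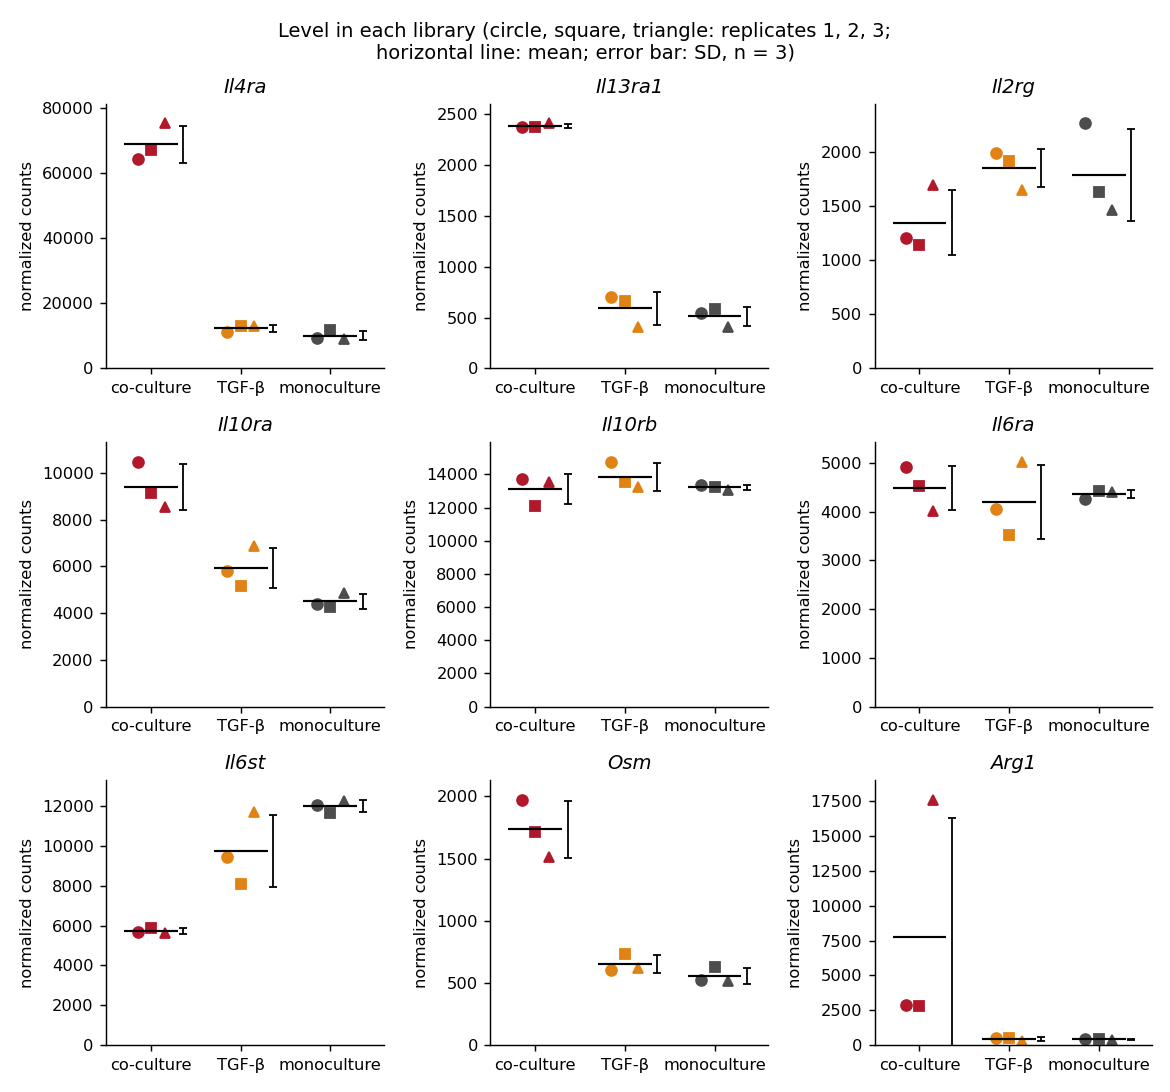
Normalized counts of the 9 genes in each library, with a panel per gene and a linear axis from 0; symbols give the replicate number, lines the mean and error bars the SD of 3 libraries. Il4ra, Il13ra1, Il10ra, Osm and Arg1 were above, and Il6st below, both other groups in every co-culture library; the lower arm of the Arg1 error bar in co-culture runs past 0 and is cut by the axis.

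**Figure D2:**
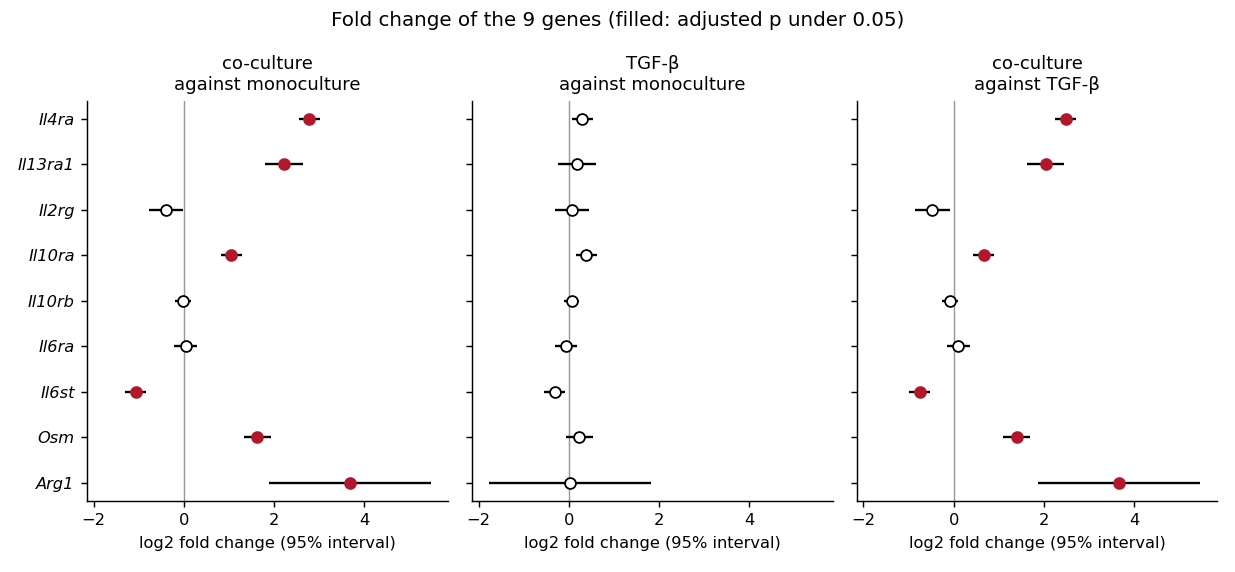
Log2 fold change of the 9 genes in the 3 comparisons, with 95% intervals from limma; filled points passed at adjusted p under 0.05. In co-culture against monoculture the estimates ran from -1.07 (Il6st) to 3.69 (Arg1), and with TGF-β against monoculture from -0.31 (Il6st) to 0.39 (Il10ra) with no gene passing.

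The chain that binds IL-4 had the most reads of the 9 genes in co-culture. Il4ra (ENSMUSG00000030748, mm10 chromosome 7, 125552120 to 125579474, plus strand) had 64315.5, 66876 and 75230.3 normalized counts in co-culture 1 to 3, 11123, 12995 and 12878 with TGF-β, and 9302, 11822 and 9106 in monoculture. All co-culture libraries lay far above the rest, while the TGF-β and monoculture libraries overlapped. Il4ra rose 6.83-fold by the ratio of means in co-culture against monoculture (log2 fold change 2.78 ± 0.11, estimate ± SE; limma adjusted p = 4.00e-10). Against TGF-β it rose as well (2.48 ± 0.11, adjusted p = 3.11e-09). With TGF-β against monoculture it did not pass (0.30 ± 0.11, 95% interval 0.06 to 0.53, adjusted p = 0.197), and 1 of the TGF-β libraries lay below the highest monoculture library. Il4ra alone took 0.0601 to 0.0682% of reads in co-culture and 0.00780 to 0.0112% in monoculture.

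The partner chains of Il4ra differed from each other. Il13ra1, which forms the receptor that both IL-4 and IL-13 use, had 2372, 2374 and 2409 normalized counts in co-culture, 706, 664 and 402 with TGF-β, and 549, 585 and 405 in monoculture. The co-culture libraries were close to each other and above all others. It rose 4.65-fold in co-culture against monoculture (2.21 ± 0.19, limma adjusted p = 1.27e-06) and also against TGF-β (2.04 ± 0.19, adjusted p = 4.49e-06). Il2rg, the common gamma chain that also serves the receptors for IL-2, IL-7, IL-15 and IL-21, had 1204, 1143 and 1693 normalized counts in co-culture, 1990.05, 1912 and 1648 with TGF-β, and 2263, 1629 and 1461 in monoculture. Co-culture 3 lay inside the monoculture range and the other two co-culture libraries below it. The difference from monoculture did not pass (-0.40 ± 0.17, 95% interval -0.78 to -0.02, limma adjusted p = 0.107), but it did without co-culture 3 (-0.58, adjusted p = 0.0176) or without monoculture 3 (-0.53, adjusted p = 0.0457). Against TGF-β the same holds (-0.47 ± 0.17, limma adjusted p = 0.0687), with a call without co-culture 3 (-0.65, adjusted p = 0.0113) or without monoculture 1, which enters through the shared spread (-0.47, adjusted p = 0.0282). Il13ra1 and Il2rg both lie on the X chromosome, at 36112110 to 36171259 (plus strand) and 101264378 to 101268255 (minus strand) in mm10.

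Promoter sequences from RefSeq (GRCm38.p6) were at hand for 5 of the 9 genes, and 3 are shown because their genes changed in co-culture: Il4ra and Il13ra1 rose and Il6st fell. Each run holds 250 bases before the RefSeq transcript start in lower case and the 50 bases from that start on in capitals, in the direction of transcription. The windows are chr7:125552021-125552320 for Il4ra, chrX:36111858-36112157 for Il13ra1 and chr13:112463820-112464119 for Il6st, all on the plus strand. The annotated mm10 gene start of Il4ra, 125552120, lies upstream of the RefSeq start at 125552271.
Il4ra: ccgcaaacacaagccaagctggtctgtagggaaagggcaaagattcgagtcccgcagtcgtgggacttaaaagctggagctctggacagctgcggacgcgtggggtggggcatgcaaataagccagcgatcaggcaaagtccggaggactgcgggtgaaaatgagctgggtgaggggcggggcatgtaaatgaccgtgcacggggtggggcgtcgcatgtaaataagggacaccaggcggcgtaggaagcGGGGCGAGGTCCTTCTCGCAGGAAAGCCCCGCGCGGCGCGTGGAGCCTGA
Il13ra1: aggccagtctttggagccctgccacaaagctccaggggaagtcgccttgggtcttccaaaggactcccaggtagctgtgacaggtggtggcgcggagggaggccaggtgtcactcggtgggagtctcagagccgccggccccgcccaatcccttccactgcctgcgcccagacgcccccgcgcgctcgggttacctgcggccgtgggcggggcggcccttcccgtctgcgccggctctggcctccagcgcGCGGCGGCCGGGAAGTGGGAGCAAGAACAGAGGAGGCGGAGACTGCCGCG
Il6st: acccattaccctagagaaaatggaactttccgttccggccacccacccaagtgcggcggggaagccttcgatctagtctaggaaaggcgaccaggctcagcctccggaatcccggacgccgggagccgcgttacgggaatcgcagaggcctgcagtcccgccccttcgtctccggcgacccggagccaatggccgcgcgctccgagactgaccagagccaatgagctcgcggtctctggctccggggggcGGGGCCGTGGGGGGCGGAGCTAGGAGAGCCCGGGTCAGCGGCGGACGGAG
The STAT motif was searched on both strands as TTCNNNGAA and, in the wider spacing that STAT6 is known to favor, as TTCNNNNGAA. Of 32817 distinct promoter windows of the same length, which do not cover every chromosome, 8.29% hold the first and 6.94% the second. Neither was in the windows of the 5 genes (these 3, Il2rg and Il6ra). This says only that these letters are not in these windows. The 3 windows shown were rich in G and C (62% in Il4ra, 71% in Il13ra1 and 68.3% in Il6st, where the median of all windows was 52.7%) and held 25, 28 and 33 CpG pairs. The genes that rose and the gene that fell were alike in this.

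For IL-10, the specific chain rose and the shared chain did not. Il10ra (ENSMUSG00000032089, mm10 chromosome 9, 45253837 to 45269149, minus strand), which binds IL-10 and carries the docking sites for STAT3, had 10491, 9162 and 8541 normalized counts in co-culture, 5793, 5155 and 6863 with TGF-β, and 4387, 4282 and 4879 in monoculture. The 3 groups did not overlap, with co-culture highest and TGF-β between. It rose 2.08-fold in co-culture against monoculture (1.05 ± 0.11, limma adjusted p = 4.32e-06) and 1.58-fold against TGF-β (0.67 ± 0.11, adjusted p = 4.10e-04). With TGF-β against monoculture the estimate was 0.39 ± 0.11 with a 95% interval of 0.15 to 0.62, and it did not pass (limma adjusted p = 0.0880). That comparison passed without TGF-β 2 (0.48, adjusted p = 0.0493) and in DESeq2 (adjusted p = 0.0269), and the range over all alternatives was 0.0269 to 0.276.

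Il10rb, the chain that the IL-10 receptor shares with those for IL-22 and lambda interferons, was level across the groups. It had 13726, 12073 and 13523 normalized counts in co-culture, 14773, 13544 and 13215 with TGF-β, and 13365, 13254 and 13057 in monoculture, and all 3 groups overlapped. The co-culture difference from monoculture was -0.02 ± 0.08 with a 95% interval of -0.19 to 0.16 (limma adjusted p = 0.913).

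In the IL-6 family the common signal chain fell while the IL-6 binding chain did not pass. Il6st (ENSMUSG00000021756, mm10 chromosome 13, 112464070 to 112510086, plus strand) had 5693, 5878 and 5613 normalized counts in co-culture, 9472, 8114 and 11703 with TGF-β, and 12087, 11658 and 12279 in monoculture. Every co-culture library was below all others, and TGF-β 3 lay inside the monoculture range while the other two TGF-β libraries lay below it. In co-culture Il6st fell to 0.477 of its monoculture mean (-1.07 ± 0.11, limma adjusted p = 3.35e-06), and it fell against TGF-β too (-0.75 ± 0.11, adjusted p = 1.29e-04). With TGF-β against monoculture the difference was -0.31 ± 0.11 (95% interval -0.55 to -0.08, limma adjusted p = 0.167), and it passed without TGF-β 3 (-0.45, adjusted p = 0.00803), the library of least depth. Il6ra, which binds IL-6 and also exists as a soluble receptor, had 4922, 4521 and 4022 normalized counts in co-culture, 4059, 3529 and 5027 with TGF-β, and 4259, 4414 and 4397 in monoculture, with overlap of all groups. Its co-culture difference from monoculture was 0.04 ± 0.12 (95% interval -0.21 to 0.29, limma adjusted p = 0.846).

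Osm encodes oncostatin M, a cytokine that macrophages secrete and that acts on fibroblasts, endothelium and neurons through receptors containing the Il6st product. Osm (ENSMUSG00000058755, mm10 chromosome 11, 4236420 to 4241026, plus strand) had 1973, 1714 and 1515 normalized counts in co-culture, 600.5, 729.9 and 623 with TGF-β, and 519.6, 627 and 511 in monoculture. The co-culture libraries lay above all others, and TGF-β and monoculture overlapped. It rose 3.14-fold in co-culture against monoculture (1.63 ± 0.14, limma adjusted p = 4.92e-07) and 2.66-fold against TGF-β (1.40 ± 0.14, adjusted p = 3.79e-06). The TGF-β difference from monoculture was 0.23 ± 0.14 (95% interval -0.06 to 0.53, limma adjusted p = 0.468).

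Arg1, the arginase of alternatively activated macrophages, rose in co-culture with an uneven level between libraries. Arg1 (ENSMUSG00000019987, mm10 chromosome 10, 24915221 to 24927484, minus strand) had 2890.0, 2776 and 17617 normalized counts in co-culture, 495, 496 and 261 with TGF-β, and 403, 455 and 336 in monoculture. Co-culture 3 stood 6.10-fold above the higher of the other two co-culture libraries, yet those also lay above every TGF-β and monoculture library. The log2 fold change against monoculture was 3.69 ± 0.74 (95% interval 1.89 to 5.49, limma adjusted p = 0.0101), and 2.81 without co-culture 3 (adjusted p = 2.73e-06). Against TGF-β it was 3.67 ± 0.74 (limma adjusted p = 0.0130), and 2.79 without co-culture 3 (adjusted p = 4.85e-06). TGF-β and monoculture overlapped (0.02 ± 0.74, 95% interval -1.78 to 1.82, limma adjusted p = 0.998). DESeq2 gave no adjusted p for Arg1 in any comparison. It is the gene with the largest excess of co-culture 3 over both others among the 9681 tested genes with at least 500 normalized counts in a co-culture library, a rank looked up after its values were seen.

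**Figure D3:**
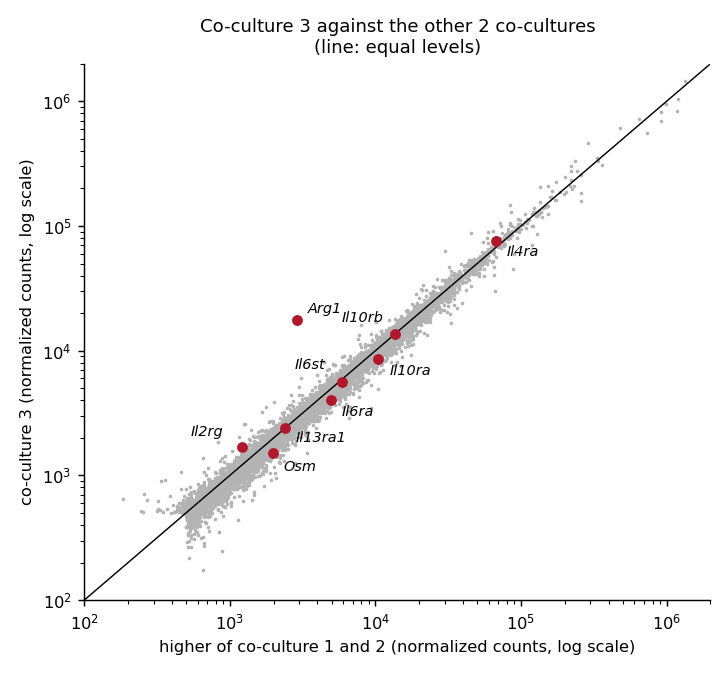
Each gray point is 1 of the 9681 genes with at least 500 normalized counts in a co-culture library, with co-culture 3 on the vertical and the higher of co-culture 1 and 2 on the horizontal axis, both on log scales; red points are the 9 genes. Arg1 lies 6.10-fold above the line of equal levels, while the ratio of the other 8 was between 0.768 (Osm) and 1.41 (Il2rg).

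The other response genes of IL-4 and IL-13 moved in both directions. Of 17 tested, 4 rose and 8 fell in co-culture against monoculture, with a median log2 fold change of -0.78, and 16 of the 17 passed the filter without the co-culture libraries. Among all tested genes 15.9% were called higher and 15% lower. The count of 4 was 2 without co-culture 1 or without monoculture 3. The transglutaminase Tgm2 rose to 45281 ± 7512 normalized counts in co-culture, against 2861 ± 644 in monoculture (mean ± SD, n = 3 each; 3.99 ± 0.16, limma adjusted p = 9.48e-09). The mannose receptor Mrc1 rose too (1.12 ± 0.12, limma adjusted p = 5.81e-06). The mitochondrial arginase Arg2, also counted as risen, had low levels of 14.1 to 51.8 normalized counts in co-culture and 3.25 to 12.7 in monoculture. Arg2 passed the filter only through co-culture, so the direction of its call (1.13 ± 0.39, limma adjusted p = 0.0412) was set by the filter. The galactose-binding lectin genes Mgl2 (-3.36 ± 0.36, limma adjusted p = 6.36e-06) and Clec10a (-2.91 ± 0.18, adjusted p = 2.37e-08) fell, and so did Pparg, a nuclear receptor of lipid metabolism (-2.57 ± 0.13, adjusted p = 4.92e-09), and the transcription factor Irf4 (101 ± 12.5 normalized counts in co-culture, 216 ± 48.1 in monoculture, mean ± SD, n = 3 each; adjusted p = 0.0112). The chemokine Ccl24 did not pass (0.26 ± 0.33, limma adjusted p = 0.614), and the chitinase-like Chil3, which had 16, 5 and 0 reads in co-culture 1 to 3, stayed below the filter. In co-culture 3, where Arg1 was highest, Mrc1 had 278157 normalized counts beside 240792 and 244193 in the other two, and Clec10a had 133.6 beside 199.9 and 143. With TGF-β against monoculture 1 of the 17 rose (Tgm2, 0.94 ± 0.16, limma adjusted p = 0.0117) and 4 fell (Clec10a, Mgl2, Egr2 and Il1rn). Among all tested genes 1.13% were called higher and 1.39% lower with TGF-β.

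Since chains act in pairs, the ratio of their levels was taken within each library, each level divided by the exon length of the gene in GENCODE M21. The ratio of Il4ra to Il2rg was 21.2, 23.3 and 17.7 in co-culture, 2.22, 2.703 and 3.11 with TGF-β, and 1.63, 2.89 and 2.48 in monoculture. The ratio of Il4ra to Il13ra1 moved less, with 16.8, 17.4 and 19.3 in co-culture, 9.75, 12.1 and 19.8 with TGF-β, and 10.5, 12.5 and 13.9 in monoculture. Il13ra1 stood at 1.27, 1.34 and 0.915 of Il2rg in co-culture and at 0.156, 0.231 and 0.178 in monoculture, so the order of these partner chains per length was turned in co-culture 1 and 2 and nearly level in co-culture 3. The ratio of Il10ra to Il10rb was 0.832, 0.826 and 0.688 in co-culture, 0.427, 0.414 and 0.565 with TGF-β, and 0.357, 0.352 and 0.407 in monoculture. That of Il6ra to Il6st was 1.11, 0.988 and 0.920 in co-culture, 0.550, 0.559 and 0.552 with TGF-β, and 0.453, 0.486 and 0.460 in monoculture. All 5 ratios, and that of Osm to Il6st, were higher in every co-culture library than in every monoculture library. With 3 libraries against 3, the exact two-sided permutation test gave p = 0.1 for each of these, the smallest p it allows, and 0.138 adjusted over the 18 comparisons made. Exon lengths count every annotated exon, so ratios between genes are approximate where a long untranslated exon is little used.

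**Figure D4:**
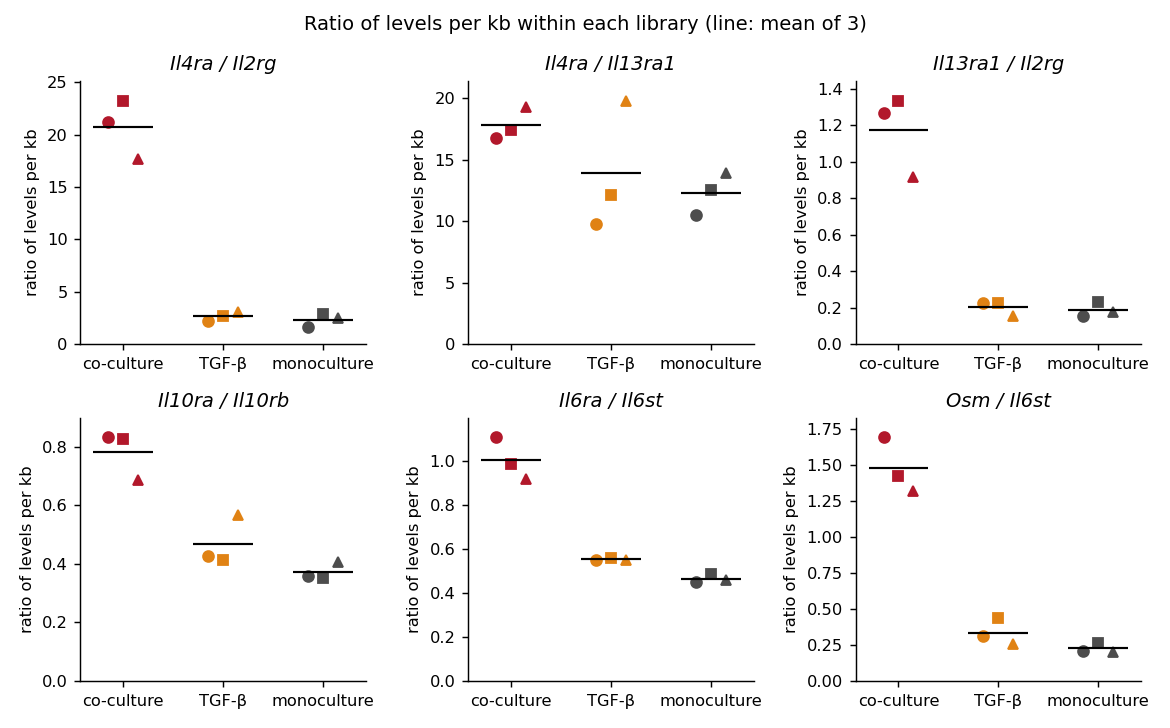
Ratio of levels per kb of exon for 6 gene pairs in each library, on linear axes from 0, with symbols for replicates 1 to 3 (circle, square, triangle) and a line at the mean. Co-culture libraries lay above monoculture in all 6 panels; Il4ra over Il2rg averaged 20.7 ± 2.83 in co-culture and 2.33 ± 0.638 in monoculture (SD, n = 3 each).

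Per length, the order of the genes was changed in co-culture. Il4ra led there with 11464 ± 951 normalized counts per kb of exon (mean ± SD, n = 3) and stood above 98.0% of tested genes, while in monoculture it had 1679 ± 252 and stood above 83.8%. Arg1 (3483 ± 3831), Il10rb (3442 ± 237) and Il10ra (2687 ± 285) followed in co-culture. The place of Arg1 came from co-culture 3 alone (7907 per kb). In co-culture 1 and 2 it had 1297 and 1246, below Il10rb and Il10ra in every co-culture library. Arg1 and Il10rb did not differ there beyond their spread, and Osm (763), Il13ra1 (643), Il2rg (564), Il6ra (519) and Il6st (516) came after, with overlap between neighbors from Il13ra1 down. With TGF-β the order was Il10rb (3635), Il4ra (2055), Il10ra (1697), Il6st (879.6), Il2rg (775), Il6ra (487), Osm (287), Arg1 (187) and Il13ra1 (159), with overlap between Il4ra and Il10ra, Il6st and Il2rg, and Arg1 and Il13ra1. Monoculture kept the same order, from Il10rb (3473 per kb) to Il13ra1 (138), and only Arg1 and Il13ra1 overlapped as neighbors.

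Further receptor subunits of the class were split between higher and lower in co-culture. Of 24 tested cytokine and interferon receptor genes 11 rose and 6 fell against monoculture (median log2 fold change 0.13), and 21 of the 24 passed the filter without the co-culture libraries. Among all tested genes 15.9% were called higher and 15% lower. The count of 11 was 6 without co-culture 2 and 7 without monoculture 2. Il21r, which pairs with Il2rg, rose to 10570.0 ± 860.5 normalized counts in co-culture, against 2228 ± 305 in monoculture (2.25 ± 0.11, limma adjusted p = 4.11e-09), and it also rose with TGF-β (5047 ± 622; 1.18 ± 0.11, adjusted p = 8.66e-05). Il12rb2, a chain of the IL-12 receptor, fell to 345 ± 49.8 in co-culture, against 1971 ± 276 in monoculture (-2.48 ± 0.15, limma adjusted p = 1.68e-08). Il7r (-1.17 ± 0.22), another partner of Il2rg, and Il3ra (-0.96 ± 0.12) fell as well, Il7r with limma adjusted p = 0.00271 and Il3ra with 1.77e-05. Csf2rb, the beta chain for IL-3, IL-5 and GM-CSF, rose by 0.47 ± 0.10 (limma adjusted p = 0.00177), and reads shared with its close copy Csf2rb2 (-0.11 ± 0.13, adjusted p = 0.575) may have been split between them.

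The receptor chains for oncostatin M and related ligands differed from each other. Osmr, the second chain of the oncostatin M receptor, had 69.3, 96.1 and 75.7 normalized counts in co-culture, where TGF-β libraries had 0 to 4.37 and monoculture ones 0 to 1.62. Osmr is also expressed by fibroblasts, whose markers were higher in the same libraries, as were the Schwann cell genes Sox10, Ngfr and Cdh19. Osmr passed the filter only through co-culture, and which cells its reads came from was not tested. Lifr, the receptor chain for leukemia inhibitory factor that also binds oncostatin M in mice, had 2252 to 2881 normalized counts in co-culture and 2311 to 3108 in monoculture (-0.06 ± 0.15, limma adjusted p = 0.795), and Il11ra1 did not pass either (-0.18 ± 0.09, adjusted p = 0.151).

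Few ligands were measurable. Of 29 listed ligand genes 19 had a row and 7 were tested, of which 2 rose and 3 fell in co-culture against monoculture. Among all tested genes 15.9% were called higher and 15% lower. Il10 fell to 53.5 ± 5.24 normalized counts in co-culture, against 273 ± 11.04 in monoculture (-2.16 ± 0.23, limma adjusted p = 5.61e-06), and to 138 ± 35.1 with TGF-β (-0.97 ± 0.23, adjusted p = 0.0434), while its receptor chain Il10ra was highest in co-culture. That TGF-β call was fragile: a ligand was called lower with TGF-β against monoculture under only 5 of the 17 alternatives. The call on Il10 was lost, among others, with pseudocount 1, without a filter, in edgeR and with only the groups compared in the fit. Ebi3, a subunit of IL-27 and IL-35, fell (-1.25 ± 0.09, limma adjusted p = 1.65e-07), as did Il15 (-0.62 ± 0.14, adjusted p = 0.00362). Lif (33.3 to 59.1 normalized counts in co-culture, 0 to 4.60 in monoculture) and Clcf1 (58.6 to 70.3 in co-culture, 7.75 to 16.2 in monoculture), both of the IL-6 family, rose and passed the filter only through co-culture. The filter thus set the direction of both. Fibroblast markers and the Schwann cell genes Sox10, Ngfr and Cdh19 were higher in the same libraries. Which cells the Lif and Clcf1 reads came from was not tested. Il4 had 3, 2 and 0 reads in co-culture 1 to 3 and 0 elsewhere, Il13 had no row, and Il6 had at most 20 reads in any library.

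Kinases and STAT factors showed smaller changes than the receptors Il4ra and Il13ra1. Of 11 genes 4 rose and 2 fell in co-culture against monoculture, where 30.8% of all tested genes were called. With TGF-β limma, edgeR and DESeq2 each called 0, with 2 at an unadjusted limma p below 0.05. Limma called 2.52% of all tested genes with TGF-β. Stat3 rose to 15637 ± 430 normalized counts in co-culture, against 10484 ± 823 in monoculture (0.58 ± 0.10, limma adjusted p = 3.41e-04), and Jak3, the kinase that binds the common gamma chain, rose by 0.71 ± 0.14 (adjusted p = 0.00189). Jak2 (0.35 ± 0.10, limma adjusted p = 0.0162) and Stat4 (0.82 ± 0.17, adjusted p = 0.00188) rose too. Stat6, the factor downstream of Il4ra, fell by 0.33 ± 0.08 (limma adjusted p = 0.00516). Jak1 (0.04 ± 0.08) and Tyk2 (-0.31 ± 0.17) did not pass.

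Among inhibitors, SOCS genes moved furthest. Of 16 SOCS, PIAS and phosphatase genes 5 rose and 1 fell in co-culture against monoculture, where 30.8% of all tested genes were called. With TGF-β limma, edgeR and DESeq2 each called 0, with 1 at an unadjusted limma p below 0.05. Limma called 2.52% of all tested genes with TGF-β. Socs3, which binds the Il6st product and restrains STAT3, rose to 4286 ± 659 normalized counts in co-culture, against 239 ± 44.0 in monoculture (4.11 ± 0.17, limma adjusted p = 7.54e-10). Socs2 rose (3.18 ± 0.34, limma adjusted p = 5.60e-06), as did Cish (1.27 ± 0.38, adjusted p = 0.0209), Ptpn1, a phosphatase that acts on JAK2 and TYK2 (1.14 ± 0.08, adjusted p = 1.02e-07), and Socs6 (0.59 ± 0.08, adjusted p = 6.23e-05). Socs5 fell (-0.50 ± 0.08, limma adjusted p = 3.25e-04) and Socs1, the main inhibitor of interferon and IL-4 signals, did not pass (0.16 ± 0.24, adjusted p = 0.663). Of 17 tested STAT3 response genes, a list that also holds Socs3, Stat3 and Il1rn, 8 rose and 3 fell (median log2 fold change 0.32). Among all tested genes 15.9% were called higher and 15% lower. Socs3, Junb (0.70 ± 0.10) and Sbno2 (0.85 ± 0.12), a corepressor induced by IL-10, were among those that rose, and the IL-1 receptor antagonist Il1rn (-1.88 ± 0.17), Bcl6 (-0.66 ± 0.10) and Etv3 (-0.40 ± 0.08) fell.

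**Figure D5:**
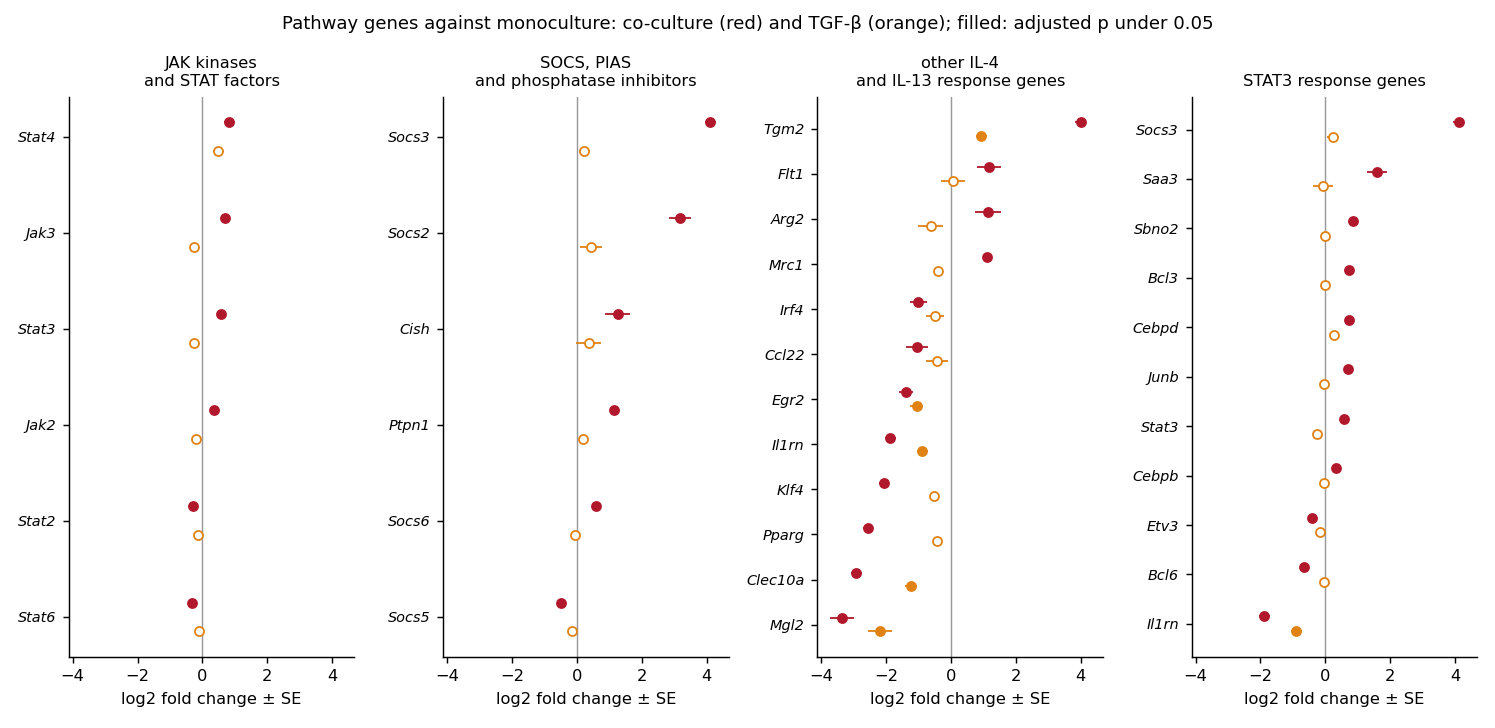
Log2 fold change ± SE against monoculture for the genes of 4 pathway lists that passed in either comparison, co-culture in red and TGF-β in orange, filled where adjusted p was under 0.05; genes are sorted by the co-culture value. Socs3 stood highest at 4.11 in both lists that hold it, and the IL-4 and IL-13 response genes spread from 3.99 (Tgm2) to -3.36 (Mgl2).

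Over the 9 libraries, the levels of Socs3 followed those of Il4ra most closely. Of 7944 genes at or above the median level, members left out, Socs3 (Pearson r = 0.997 on log2 levels), the stress-induced Ier3 (0.997), the NAD glycohydrolase Cd38 (0.996), the kinase Bmp2k (0.994) and the cyclooxygenase Ptgs1 (0.994) were nearest to Il4ra. For Osm the nearest were the Golgi protein Golm1 (0.997), the kinase Plk3 (0.994), the TGF-β-induced matrix protein Tgfbi (0.991), Dock4 (0.991) and the repressor Etv6 (0.990). The points are libraries of 3 groups, so these values mostly describe a shared step between co-culture and the rest. Among the 9 genes Il4ra and Osm had r = 0.983, Il4ra and Il13ra1 0.968, and Osm and Il6st -0.954.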

How the data were processed

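RNA of sorted mouse macrophages was sequenced in 9 libraries, 3 per group, prepared from 10 ng of input by a strand-specific SMART-Seq protocol, per the labels. The authors deposited 1 signal value per gene and library. The submitters' processing notes name bcl2fastq 2.20, STAR 2.7.3, DESeq2 1.24.0, R 3.6.1 and build mm10, without role or order; the counting program, its use of strand and the annotation are not given in the sources used here. In each deposited column every signal value was a whole multiple of 1 step (100% within 0.05), so values were read as reads divided by a size factor, 1 read being worth 0.346 to 2.27. Genes with at least 10 in 3 or more libraries (16328 of 24607) were tested with limma 3.58.1 (trend, robust) in R 4.3.3 on log2(value + 10). All 9 libraries were in 1 fit with group as the factor. Fold changes of low genes are understated on this scale. Ratios of means are given beside it for the called members except Arg1, and not for the low genes of the lists. Alternatives were pseudocount 1, other filters, TMM scaling, edgeR 4.0.16 and DESeq2 1.42.0 on recovered reads, pairs of groups, the replicate number as a block, and each library left out. The fit was run on simulated data with the same relative spread for every gene. That setting does not cover genes as uneven between replicates as Arg1. Coordinates and exon lengths came from GENCODE M21 (mm10), matched by identifier for 24335 genes. The members and lists were chosen with earlier results of these data known. Named were the 9 members, set pathway partners, list genes of smallest p, and genes nearest to Il4ra and Osm; others, such as Il7r, Il3ra, Csf2rb2, Il15, Socs5, Socs6, Egr2, Sbno2, Bcl6, Etv3, single marker genes and the genes apart in co-culture 3, were named after their values were seen. A few genes of the lists are counted but not reported here by name. No exon of the 9 genes overlapped an exon of another gene in the table. Annotated genes without a row also overlap Il4ra, Il2rg, Il10rb and Il6ra, and their exons were not compared. Those over Il2rg (Gm20489) and Il10rb (Gm21970) lie on the same strand.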

Additional observations from a re-analysis of the deposited data

How the results depend on the processing

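Il4ra and Osm kept their direction and side of the threshold under all 17 alternatives in every comparison (Il4ra 2.71 to 2.90 and Osm 1.53 to 1.72 in co-culture against monoculture), as did Il13ra1. Called members that were higher in co-culture numbered 5 under every alternative but DESeq2 in both co-culture comparisons, where there were 4, Arg1 having no adjusted p. Members called lower numbered 1 to 2 without each library in turn, against monoculture and against TGF-β, where Il2rg was the second; against TGF-β there were also 2 with DESeq2 and with only the 2 groups compared. With TGF-β against monoculture DESeq2 called 1 member higher, and 423 genes higher and 474 lower among all tested, against 185 and 227 in limma. Leaving out each library gave 0 to 1 members higher and 0 to 1 lower in that comparison, and 92 to 496 genes higher and 73 to 443 lower among all tested, fewest without TGF-β 1 and most without TGF-β 3. Uncalled members changed sign in leave-one-out fits: Il6ra ranged from -0.031 to 0.11 and Il10rb from -0.050 to 0.043 in co-culture against monoculture, Il2rg from -0.058 to 0.26, Arg1 from -0.13 to 0.32 and Il6ra from -0.20 to 0.052 with TGF-β against monoculture, and Il6ra from -0.014 to 0.24 in co-culture against TGF-β. The causes were not tested. The list of IL-4 and IL-13 response genes had 2 higher in co-culture with edgeR, and receptors 7 higher where at least 10 was required in all 9 libraries, a filter that leaves fewer genes. Without each library in turn the genes higher in co-culture against monoculture numbered 6 to 11 for receptors and 2 to 4 for IL-4 and IL-13 response genes, and the kinases and STAT factors that were lower 1 to 3.

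The labels do not say whether a replicate number marks a shared mouse, and the data do not settle it: the correlation between same-numbered libraries of their deviations from the group means was -0.147 to 0.372, over 0.1 in 3 of 9 pairs, and the best match was the own number in 6 of 18 checks. With the replicate block 5 members were higher and 1 lower in co-culture against monoculture, and 2522 and 2404 of all tested genes, against 2590 and 2443 without it; the TGF-β calls on Il10 and Il1rn were lost. At the shallowest depth, 46.8 M reads, 1 read was worth 2.27 normalized counts, which limits Osmr, Lif and Il4.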

Other observations

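Over all 9681 genes with at least 500 normalized counts in a co-culture library, 1 was more than 4-fold above both others in co-culture 3 (Arg1), 4 were so in co-culture 1 and 0 in co-culture 2. The next genes by excess in co-culture 3, ranked after the values of Arg1 were seen, were Igfbp5, an insulin-like growth factor binding protein (649.8 normalized counts in co-culture 3 beside 164 and 186 in co-culture 1 and 2), the cytokine gene Tgfb3 (706 beside 152 and 259) and Nptx1, a neuronal pentraxin (894 beside 334 and 216).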
